A study of Mus musculus with 8 samples.

Results

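Replication-dependent and variant histone genes were taken as every locus of the RNA-Seq count table whose most frequent gene name was a cluster histone name (Hist1h to Hist4h, called Hist-named loci here) or the name of a replacement or linker variant (H2af, H3f3a, H3f3b, H1f and H1fx names). Of 44396 loci, 84 met this rule under 80 different names, 66 of them Hist-named loci and 18 loci of variant genes. The rule used names and no measured value, though it was set with earlier results of these data known. On the mm10 build, 54 Hist-named loci lay between chr13:21715713-23934913, the main histone cluster of the mouse, 9 on chromosome 3, 1 on chromosome 6, 1 on chromosome 11 and 1, Hist1h2al, at chr13:51200084-51203066. In GENCODE vM21, 80 of the loci were protein coding and 2 (H2afy3 and Hist1h2al) were processed pseudogenes, while 2 had no gene of their name at that place. Another 5 GENCODE histone genes (Hist1h2aj, Hist1h2br, Hist1h3d, Hist2h2aa1 and Hist3h2a) led no locus of the table and are not described under their own names. Hist1h2br was a further name of both Hist1h2bq loci. The start of the Hist2h3c1 locus, taken here as H3 by its name, matched the RefSeq promoter of an H2A gene (H2ac18).

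The cells were mouse embryonic stem cells (mESCs) that carry GFP under the Oct4 promoter, grown without feeder cells in LIF and 2i medium. Control cells received a saline supplement and treated cells received 10 µM morphine, in both cases for 24 h. Poly(A) RNA was sequenced from 2 samples of each condition, and another 2 of each were used for ChIP-Seq of the Polycomb mark H3K27me3. The RNA samples are described as duplicates of 1 cell line with no word on separate cultures, so p-values below measure only the spread between these samples.

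Total counts ran from 25081266 to 29531096 per RNA library, and the histone loci took 0.110% to 0.117% of them. All 8 pluripotency markers examined passed the count filter and 0 were called by edgeR's quasi-likelihood test (1.52% of all tested loci were), with summed levels of 4578 and 4507 CPM (counts scaled to a common library total) in control and 4705 and 4568 after morphine. At an unadjusted p under 0.05 there were 3 of the 8, with log2 fold changes of 0.23 for Pou5f1 (adjusted p 0.0525), -0.12 for Nanog and -0.19 for Tfcp2l1. Markers of fibroblasts summed to between 10.3 and 12.5 CPM, with Col3a1 at 0 counts in both control libraries, and markers of endoderm and mesoderm summed to at most 17.6 and 6.33 CPM. Neural markers summed to between 124 and 137 CPM, most of it Tubb3, and germ cell markers to between 19.1 and 22.8 CPM, nearly all of it Ddx4, with Prm2 at 0 in every library.

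Canonical core and linker histones are made during S phase, when new DNA has to be packed into nucleosomes. Their mRNAs are the one large class of animal mRNA that ends without a poly(A) tail: the 3′ end folds into a short stem-loop that is bound by SLBP and cut by a complex guided by the U7 snRNP. Replacement variants such as H3f3a, H3f3b and H2afz are made throughout the cell cycle from ordinary polyadenylated mRNAs, and a library made from poly(A) RNA is therefore known to hold little of the first class and most of the second. H3K27me3 is deposited by Polycomb Repressive Complex 2 on the tail of histone H3 and is typical of silent developmental promoters in stem cells.

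The 3′ ends that separate these classes are shown first, because every level below was read against them. The consensus of the histone stem-loop, searched on the transcribed strand only, was found 4 to 8 bases before the end of 58 loci, all of them Hist-named, and at the end of 0 of 18 variant loci. Among all 41254 loci with a strand on the chromosomes searched, 0.165% held the consensus in the window from 300 bases before to 100 bases after the end (68 loci, 10 of them not histone loci by the rule). The stem-loops of the 6 such loci with enough reads for testing were the following, on mm10, with both arms of the stem in capitals:
Hist1h1c (chr13:23739507-23739532, + strand): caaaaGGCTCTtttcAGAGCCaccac
Hist1h4i (chr13:22040961-22040986, - strand): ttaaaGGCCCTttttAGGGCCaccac
Hist1h3g (chr13:23535884-23535909, + strand): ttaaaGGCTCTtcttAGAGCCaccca
Hist1h2ba (chr13:23933725-23933750, - strand): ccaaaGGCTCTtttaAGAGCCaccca
Hist1h2aa (chr13:23934886-23934911, + strand): aaaaaGGCTCTtttcAGAGCCacctt
Hist3h2ba (chr11:58949344-58949369, + strand): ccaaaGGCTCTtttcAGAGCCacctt

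The 58 loci shared 8 different stem-loops. The most frequent, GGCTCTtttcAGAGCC, ended 34 loci, of which 5 coded for H1, 13 for H2A, 9 for H2B and 7 for H3. Among loci that end in a stem-loop, the stem separated histone H4 from the rest: 13 of 13 H4 loci had an arm of GGCCCT or GGTCCT, and 45 of 45 other loci had GGCTCT.

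A poly(A) signal (AATAAA or ATTAAA, transcribed strand, from 50 bases before to 10 bases after the end) was found at 15 of 18 variant loci, at 7 Hist-named loci and at 0 of the 58 stem-loop loci, against 54.0% of all loci searched. The signals at the Hist-named loci that had one and enough reads, and at the genes for replacement H3, H2A.Z and H2A.X, were the following, with the signal in capitals:
Hist1h2bc (chr13:23692450-23692479, + strand): tgatgtatatatAATAAAtgtcatgtaaag
Hist2h2be (chr3:96223705-96223734, + strand): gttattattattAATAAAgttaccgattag
H2afz (chr3:137866885-137866914, + strand): ctctgcttactaATTAAAcagtgcatctgt
H3f3b (chr11:116021981-116022010, - strand): cttacaAATAAActagtaagtttggagttt
H3f3a (chr1:180802558-180802587, - strand): ctattaaaatacATTAAActatacctgctt
H2afv (chr11:6427240-6427269, - strand): caaatgcacagaAATAAAgaaactagcact
H2afx (chr9:44336031-44336060, + strand): tgggctaattttATTAAAggatcgtttggt

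H2afx, whose product H2A.X is phosphorylated at DNA breaks, held both kinds of end. Besides the signal above, its exon carried a stem-loop 822 bases before the end of the locus, with an arm of GGCCCT as in H4 genes, shown with the stem in capitals:
H2afx (chr9:44335235-44335260, + strand): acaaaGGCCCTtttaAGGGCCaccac
Hist1h2bc and Hist1h2be likewise carried a stem-loop within an exon, 7818 and 1861 bases of genomic sequence before the end of the locus, and so did both Hist1h2bq loci, which had no reads. The longer of the 2 Hist1h2bp loci spans the stem-loop at which the shorter one ends, but not within its own exons. The remaining loci, Hist1h2an, H2afy, H2afb2 and H1fnt, held neither sequence in the windows searched, which says only that these letters were not there.

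RNA levels differed between the classes by orders of magnitude. Per kb of exon, the median level was 0.125 CPM over the 58 stem-loop loci, 0.0558 CPM over the 7 Hist-named loci with a poly(A) signal and 14.8 CPM over the 15 variant loci with one. Hist-named loci together held 471 and 465 counts in control and 384 and 409 after morphine, which was 1.31% to 1.47% of all histone counts in a library. Since H1foo has 3 overlapping loci and Hist1h2bp 2, a few reads may stand in these sums more than once. The same division held within each histone family that has variants: Hist-named loci gave 6.08% to 7.59% of H1 counts, 0.156% to 0.254% of H2A counts and 0.195% to 0.318% of H3 counts, while H2B and H4, with no variant in the rule, came to only 200 to 242 and 27 to 62 counts per library. In bulk RNA, fewer cells of a type and less RNA per cell cannot be told apart.

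**Figure D1:**
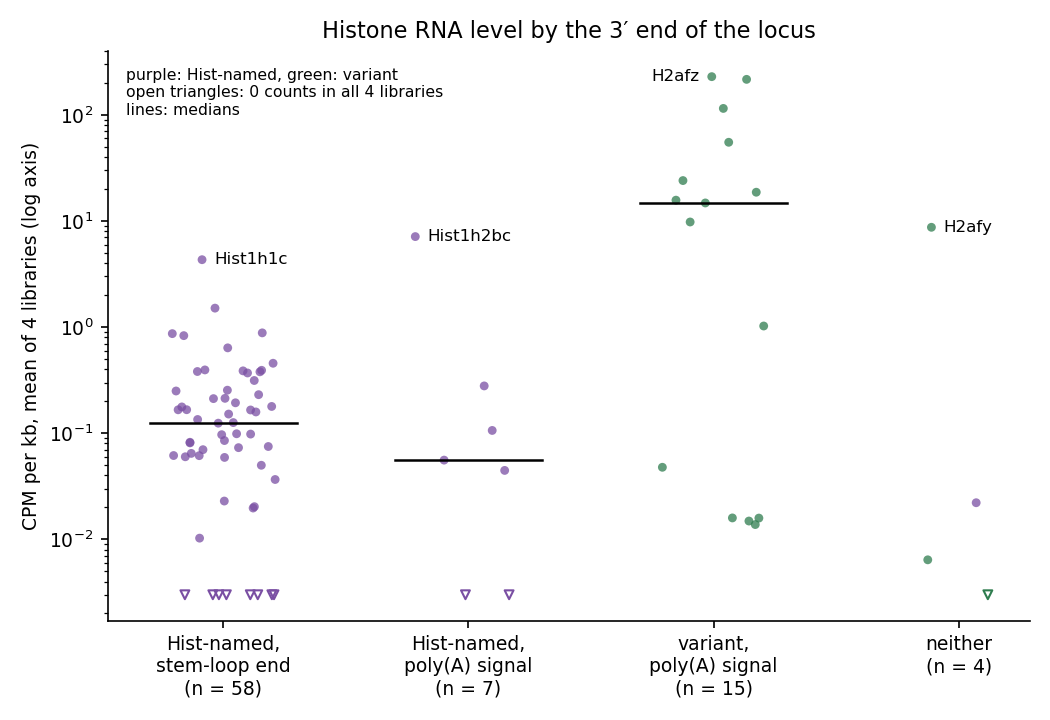
Mean RNA level of each of the 84 histone loci over 4 libraries, in CPM per kb of exon on a log axis, grouped by the sequence at the 3′ end, with medians as lines and loci at 0 counts as open triangles. The medians were 0.125 CPM per kb for stem-loop loci and 14.8 for variant loci with a poly(A) signal, and Hist1h1c and Hist1h2bc were the highest Hist-named loci.

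Both groups were broad. Among the variants, 11 of 18 loci had enough reads for testing and the other 7 had at most 2 counts in any library. These 7 were the loci of H1foo (an oocyte linker histone), H1fnt (a spermatid linker histone) and H2afb1, H2afb2 and H2afb3 (short H2A variants of the testis). Among the Hist-named loci, 34 of 66 had 3 counts or fewer in each library and 10 had none in all 4.

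A count near 0 can also come from sequence that cannot be placed. Nearly identical histone copies share their reads, and how the authors' counting treated reads with several alignments is not stated. Of the 32-base words in the exons of a Hist-named locus, a median of 62.4% occurred elsewhere in the genome, and at the 10 loci without any read the median was 100%. The 7 stem-loop loci with under 10% repeated words ranged from 0.0600 to 0.882 CPM per kb, with at most 13 counts in a library. The part of repeated sequence in the level of any locus was not tested. Hist1h1a, a linker histone of cycling cells with 0.140% repeated words, had 9 and 9 counts in control and 9 and 5 after morphine. Hist4h4, with 0.245%, had 6 and 5 against 3 and 4. Among variants, repeated words made up 84.2% of H2afz, 71.7% of H3f3a and 39.3% of H3f3b.

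**Figure D2:**
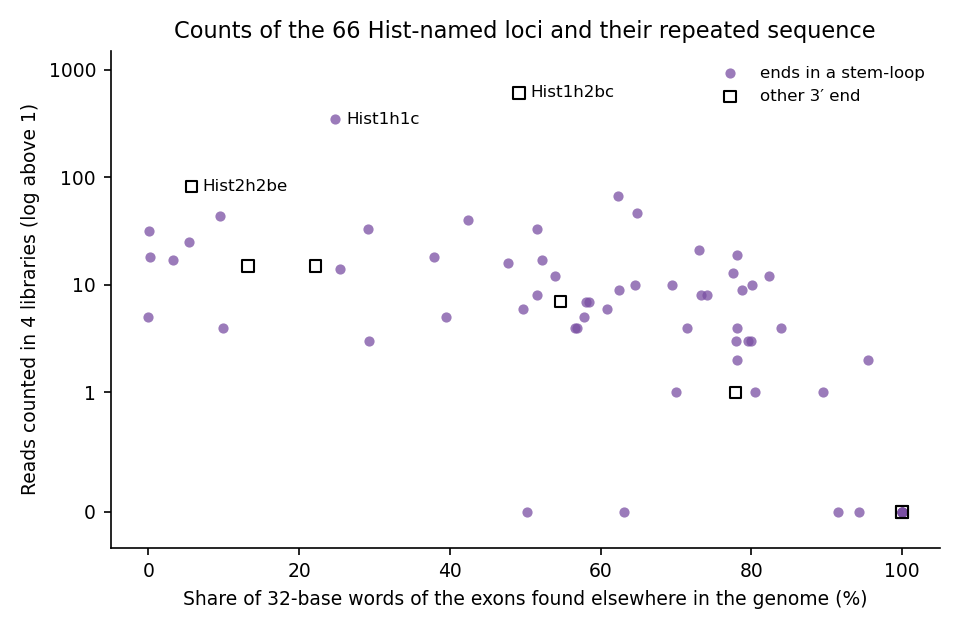
Reads counted over 4 RNA-Seq libraries in each of the 66 Hist-named loci (log axis above 1) against the share of 32-base words of its exons that occur elsewhere in the genome (%), with filled points for loci that end in a stem-loop and open squares for the others. The loci at 100% had no reads, and of the loci under 10% only Hist2h2be, which has a poly(A) signal, had more than 50 reads in all.

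Levels were ordered per kb of exon. On this scale, H2afz, which encodes the H2A.Z found at active and poised promoters, had the highest level at 229 CPM (212 to 251 over the libraries). H3f3b, one of 2 genes for the replacement histone of H3, followed at 216 CPM (208 to 227), and the ranges of these 2 overlapped. H2afx stood at 115 CPM and H2afv, the second H2A.Z gene, at 55.2 CPM, each clear of its neighbours. H2afy2 (macroH2A2) reached 24.1 CPM, H1fx 18.7, H1f0 15.7, H2afj 14.8, H3f3a 9.79 and H2afy (macroH2A1) 8.73, and among these only H1f0 and H2afj had overlapping ranges. Of the 18 pairs of neighbours in the order of the 19 tested loci, 7 overlapped, 5 of them at or below the level of H2afy3. H3f3b, H2afz, H2afx and H2afv together took 80.7% to 82.1% of all histone counts.

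Genes for the same or a closely related histone differed in level per kb of exon. Per kb, H3f3b stood 20.2 to 23.9 times above H3f3a, H2afz 3.91 to 4.62 times above H2afv, and H2afy2 2.53 to 2.92 times above H2afy. Repeated sequence differs within each pair and its part in these ratios was not tested. Before division by exon length (2058 and 5552 bases), H2afy2 and H2afy had nearly equal means over the 4 libraries, 49.5 and 48.4 CPM. Hist1h2bc, an H2B gene of the main cluster whose locus runs to a distal poly(A) signal, was the highest Hist-named locus at 7.13 CPM per kb, and it lay below all variants with enough reads other than H2afy3. Hist1h1c, a linker histone gene, came next at 4.32 CPM per kb although its locus ends in a stem-loop. These 2 genes held 47.6% to 58.6% of all Hist-named counts.

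**Figure D3:**
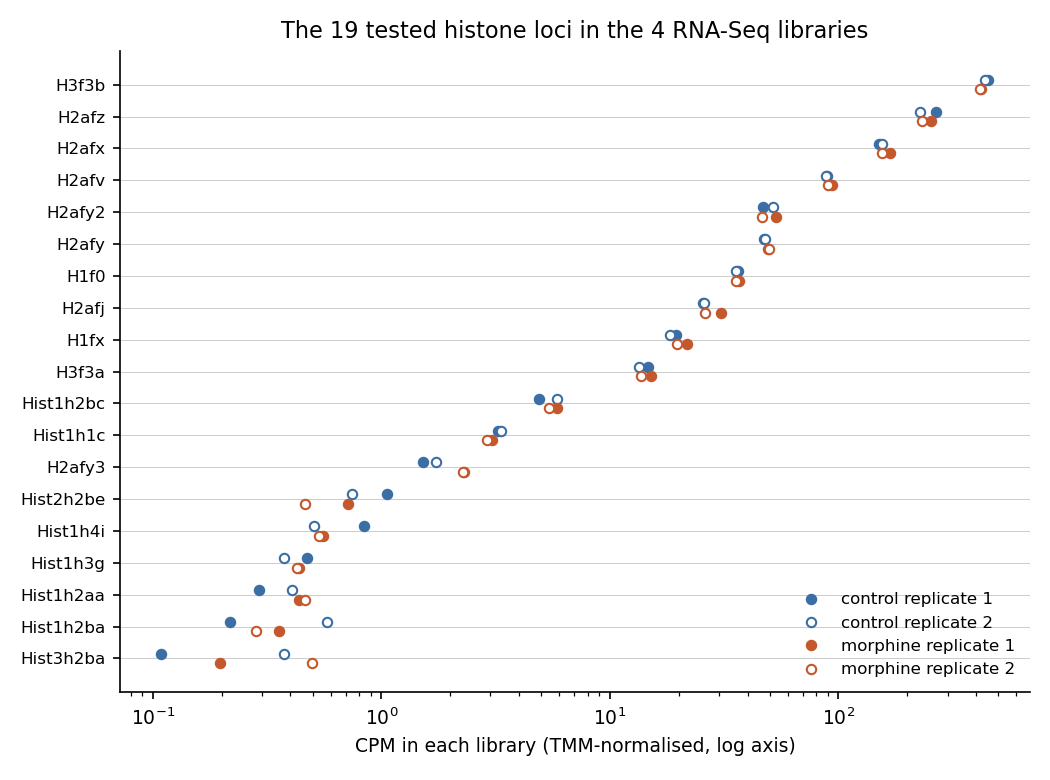
Level of the 19 tested histone loci in each RNA-Seq library, in TMM-normalised CPM on a log axis, with control in blue and morphine in orange. H3f3b had 453 and 439 CPM in control and 419 and 414 CPM after morphine, and the 6 lowest loci, all Hist-named, lay near or under 1 CPM in every library.

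The comparison of morphine with control asked which histone RNAs differed after 24 h of treatment. None did at a false discovery rate (FDR) of 0.05. Of the 84 loci, 19 (11 variants and 8 Hist-named) passed the count filter and 0 were called by edgeR's quasi-likelihood test, where 1.52% of 20350 tested loci were called in all, 0.614% higher and 0.904% lower. At an unadjusted p under 0.05 there were 2 (H3f3b and H2afy3), where 20.5% of all tested loci had one. The exact and likelihood ratio tests of edgeR gave 1 (H2afy3) and DESeq2 gave 0, where 17.6%, 18.2% and 10.9% of all tested loci had one. At the FDR threshold the exact test, the likelihood ratio test and DESeq2 called 0 histone loci as well (3.88%, 4.13% and 3.2% of all tested loci), although DESeq2 gave an adjusted p for only 7 of the 19, and so did a fit with the replicate number as a block (5.54%). At 7 of the 19 loci the lower morphine library exceeded the higher control library (26.0% of all tested loci), and at 3 the reverse held (26.8%). Fitted fold changes were above 0 at 13 loci and below 0 at 6, with a median log2 fold change of 0.04 against 0.0013 over all tested loci. The tested histone loci had a median GC content of 54.4% against 49.7% over all tested loci, and after removal of each library's trend with exon length and GC content their median was -0.02, 6 loci had the opposite sign and 0 were called (0.433% of all tested loci, or 1.5% in the same fit with the replicate block).

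Of the variants with enough reads, 10 were bounded closely. Leaving out H2afy3, their 95% confidence intervals for the log2 fold change lay between -0.19 and 0.31. H3f3b and H3f3a encode the replacement H3. H3f3b had 453 and 439 CPM in control and 419 and 414 CPM after morphine. Its morphine libraries were both below its control libraries, with a log2 fold change of -0.10 (95% interval -0.19 to -0.0045), which missed the FDR threshold in edgeR's quasi-likelihood test (adjusted p 0.223) and became 0.03 (adjusted p 0.772) once the length and GC trends were removed. H3f3a had 14.7 and 13.4 CPM against 15.1 and 13.7 CPM, groups that overlapped, with a log2 fold change of 0.04.

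The H2A variants showed no call either. H2afz had 268 and 227 CPM in control and 255 and 232 CPM after morphine, with the control libraries farther apart than the conditions. H2afv had 88.9 and 88.6 CPM against 94.0 and 89.9 CPM, higher in both morphine libraries by a log2 fold change of 0.05. These genes both encode H2A.Z, and their fold changes had opposite signs within errors of 0.07 and 0.05. H2afx had 150.2 and 154 CPM against 168 and 155 CPM, a log2 fold change of 0.08 (SE 0.05) that turned to -0.11 without the length and GC trends (adjusted p 0.244, edgeR quasi-likelihood test). H2afj, a replication-independent H2A, had 25.7 and 25.9 CPM against 30.6 and 26.1 CPM, so that 1 morphine library stood apart.

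MacroH2A carries a large extra domain and is known from silent chromatin. H2afy had 47.4 and 47.7 CPM in control and 49.2 and 49.5 CPM after morphine, tight pairs that did not overlap and differed by a log2 fold change of 0.05 (SE 0.06). H2afy2 had 46.8 and 51.7 CPM against 53.2 and 46.4 CPM, which overlapped. H2afy3, a processed pseudogene of this family at chr15:62217541-62219451, had 1.53 and 1.73 CPM against 2.29 and 2.27 CPM. The H2afy3 pairs did not overlap, and its log2 fold change of 0.48 (SE 0.21) had an adjusted p of 0.220 in edgeR's quasi-likelihood test, the smallest of the 19. As 20.6% of its words occur elsewhere, reads of its parent genes may be counted there, which was not tested. H2afy, H2afy2, H1fx and Hist1h2bc also overlap a locus of the other strand in an exon, and without knowing whether the counting used strand, reads of the overlapping pairs cannot be told apart.

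No linker variant passed the test. H1f0, which accumulates in cells that stop dividing, had 36.3 and 35.5 CPM in control and 36.8 and 35.6 CPM after morphine. H1fx had 19.5 and 18.4 CPM against 21.8 and 19.7 CPM, both higher after morphine by a log2 fold change of 0.13 (SE 0.08), and the sign turned without the length and GC trends.

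**Figure D4:**
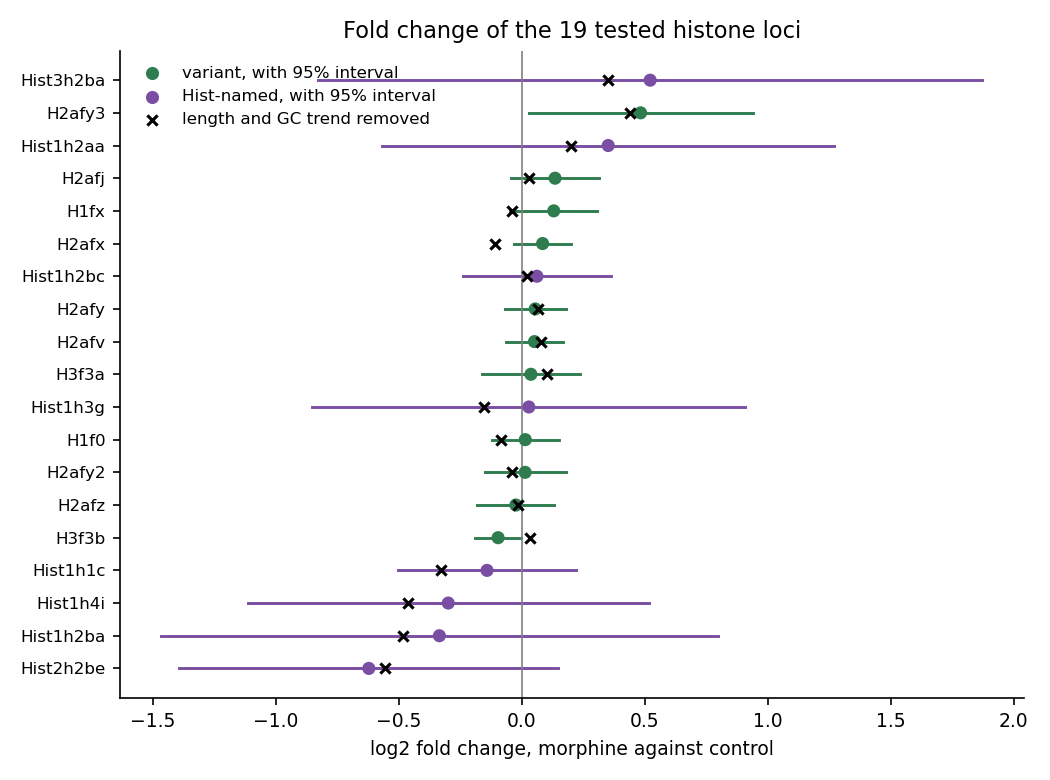
Log2 fold change of morphine against control for the 19 tested histone loci with its 95% confidence interval (variants in green, Hist-named loci in purple), and as crosses the same after removal of each library's trend with exon length and GC content. Apart from H3f3b and H2afy3 every interval includes 0, and for H3f3b, H2afx, H2afy2, H1f0, H1fx and Hist1h3g the cross lies on the other side of 0.

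Among the Hist-named loci the counts set the precision. Hist1h2bc had 4.91 and 5.88 CPM in control and 5.85 and 5.44 CPM after morphine, which overlapped. Hist1h1c had 3.24 and 3.33 CPM against 3.04 and 2.91 CPM, lower in both morphine libraries by a log2 fold change of -0.14 (SE 0.17, adjusted p 0.684 in edgeR's quasi-likelihood test), which was -0.33 with the length and GC trends removed (adjusted p 0.435). Hist2h2be, an H2B gene outside the main cluster that has a poly(A) signal, had 29 and 22 counts against 18 and 13 and the lowest fold change of the 19, -0.62 on the log2 scale (95% interval -1.39 to 0.15). Without control replicate 1 it was -0.36, without morphine replicate 2 -0.33, and without morphine replicate 1 -0.95.

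The other tested Hist-named loci had fewer than 25 counts in any library. Hist1h4i, an H4 gene, had 23 and 15 counts against 14 and 15. Hist1h3g, an H3 gene, had 13 and 11 counts against 11 and 12. Hist3h2ba, an H2B gene on chromosome 11, had 3 and 11 counts against 5 and 14, and its fitted log2 fold change of 0.52 was the highest of the 19 with an interval from -0.83 to 1.87. For Hist1h4i, Hist1h3g and Hist3h2ba the groups overlapped.

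Hist1h2aa and Hist1h2ba encode the H2A and H2B known from the testis and lie side by side at the distal end of the chromosome 13 cluster, at chr13:23934462-23934913 and chr13:23933725-23934156 on opposite strands. Hist1h2aa had 8 and 12 counts in control and 11 and 13 after morphine. In CPM these were 0.291 and 0.408 against 0.435 and 0.462, groups that did not overlap, with a log2 fold change of 0.35 (SE 0.42). Hist1h2ba had 6 and 17 counts against 9 and 8, which overlapped, with a log2 fold change of -0.34 (SE 0.52). Hist1h1t, the linker histone of spermatocytes, had 2 and 2 counts against 0 and 1. These counts are too few to show a change of the size fitted here.

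Summed over all 66 loci, Hist-named RNA stood at 17.1 and 15.8 CPM in control and 15.2 and 14.5 CPM after morphine. The groups did not overlap, with means of 16.5 ± 0.954 and 14.9 ± 0.461 CPM (SD, n = 2) and a log2 ratio of the means of -0.15 (two-sided exact permutation p = 0.333, the smallest that 2 against 2 libraries allow). The sum rested in part on control replicate 1 and on loci under the count filter: without that library the log2 ratio was -0.09, and over the 8 tested loci alone it was -0.05 with overlapping groups. The 58 untested Hist-named loci held 165 counts in control replicate 1, 106 in control replicate 2, and 91 and 99 after morphine. Over the stem-loop loci alone, a choice made after the data were seen, the sums were 10.7 and 8.93 CPM in control and 8.30 and 8.31 CPM after morphine. Variant loci summed to 1152 and 1103 CPM in control and 1145 and 1084 CPM after morphine, groups that overlapped (two-sided exact permutation p = 0.667).

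The genes that act on histone RNA and protein were read beside these. Of 16 listed genes for stem-loop 3′ end processing and cluster histone transcription (Slbp, Lsm10, Npat and others), 15 matched a locus by name and 1, entered as Symplk, did not. Of the 15, 0 were called in either direction by edgeR's quasi-likelihood test (1.52% of all tested loci were) and 12 had a fold change below 0 (49.7% of all tested loci did). The median log2 fold change of the 15 was -0.07 against 0.0013 over all tested loci, or -0.03 with the length and GC trends removed. Of these 15, 6 had an unadjusted p under 0.05, as did 7 of the chaperones below and 2 of the S phase genes, against 20.5% of all tested loci. Among the genes with such a p, Lsm10, Srrt, Chaf1a, Daxx and Cdt1 were higher after morphine and the others lower. Of 17 listed histone chaperones and exchange factors, 16 matched a locus by name and Asf1b did not. Of the 16, 1 was called lower (0.904% of all tested loci) and 0 higher (0.614%), with a median of -0.04, or -0.0078 with the trends removed. The called gene was Supt16, a subunit of the FACT complex that moves nucleosomes ahead of polymerases, with 726 and 714 CPM in control and 604 and 639 CPM after morphine. Its log2 fold change was -0.21 (SE 0.04, adjusted p 0.0424, edgeR quasi-likelihood test). The call was lost in the same test after removal of the length and GC trends (-0.11, adjusted p 0.118). Without control replicate 1 or morphine replicate 1, which leaves 1 sample in a group, the log2 fold changes were -0.20 and -0.17. Ssrp1, also of FACT and in the same list, had 358 and 375 CPM against 370 and 378 CPM, a log2 fold change of 0.03. Of 14 genes of DNA replication and S phase (Mcm2 to Mcm7, Pcna, Ccne1 and others), 0 were called (against the same 1.52%), with a median of 0.03, or -0.0026 with the trends removed, and summed levels of 4883 and 5046 CPM in control and 5043 and 5009 CPM after morphine.

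Promoter sequences were available from RefSeq (GRCm38.p6, from 250 bases before to 50 bases after the start) for 76 of the 84 loci, 60 Hist-named and 16 variant. CCAAT, on either strand, was found in 51 of 60 Hist-named and 11 of 16 variant promoters, against 37.4% of 32851 promoters in the table. TATAAA, on either strand, was found in 35 of 60 and 1 of 16, against 13.6%. Promoters were counted once for each locus, so the one of the 3 H1foo loci, which holds CCAAT, counts 3 times. Of the 60 Hist-named promoters, 21 overlapped another, nearly all as divergent H2A and H2B pairs that share 220 to 279 bases, and the 60 came to 49 separate stretches, of which 40 held CCAAT. The H4 genes stood apart again: 3 of 12 held CCAAT, while all 48 other Hist-named promoters (37 separate stretches) did. The single variant promoter with TATAAA was that of H3f3b. A match is a description of letters and not a binding site.

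Few H3K27me3 peaks were called at histone starts. Reads that cannot be placed in repeated sequence may be missing from ChIP-Seq as well, and the part this played was not tested. A deposited peak lay within 1 kb of the start of 5 and 5 of the 84 loci in the control libraries and of 2 and 4 in the morphine libraries, against 12.8% and 13.2% of 41511 loci with a strand in control and 12.9% and 13.4% after morphine. In any library, 5 of 84 loci (5.95%) had such a peak against 18.1% of all loci, and in all 4 libraries 2 had one against 8.8%. The mean number of loci was 5 ± 0 in control and 3 ± 1.41 after morphine (SD, n = 2, two-sided exact permutation p = 0.333, the smallest these libraries allow). The difference depended on the window, as it was 0 within 3 kb of the start (6 and 6 loci against 5 and 7) and turned for peaks over the start itself (1 and 1 against 1 and 2) and for peak midpoints within 1 kb (0 and 0 against 1 and 0). The library with the fewest of these loci, morphine replicate 1, also had the fewest peaks in all, 8681 against 10305 to 13778, and when every library was cut to its 8681 highest scores the numbers were 5 and 5 against 2 and 2.

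The starts with a peak were those of 3 variants and 2 Hist-named loci. H1f0 had one in all 4 libraries, beginning 255 and 109 bases downstream of the start in control and 236 bases downstream in morphine replicate 2, while in morphine replicate 1 the peak covered the start. Hist1h1e, a linker histone gene of the chromosome 13 cluster, also had one in all 4, on its upstream side: the peak was 26 bases from the start in control replicate 1, covered it in control replicate 2 and morphine replicate 2, and was 79 bases away in morphine replicate 1. H2afy2 and H2afy had one in 3 libraries and none within 1 kb in morphine replicate 1. H1f0 RNA was at 35.5 to 36.8 CPM, and Hist1h1e had 5, 0, 4 and 5 counts.

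Hist3h2ba was the only histone locus with a peak within 1 kb in both control libraries and in neither morphine library, a pattern of 0.472% of all loci, and 0 showed the reverse (0.749%). In control its start lay in a gap between a pair of peaks, 1 ending 274 and 186 bases upstream of it and 1 beginning 642 and 753 bases downstream of it in replicates 1 and 2. After morphine the downstream peak was still called but began 1521 and 1115 bases from the start, and no upstream peak was called within 1 kb. Of the downstream peaks, the score was 83.4 and 302 in control and 63.2 and 87.2 after morphine, on the authors' scale, which grows as the p-value of a peak falls, starts at 50 in these lists and can be compared only within a library. As the locus was picked out by the 1 kb window, these distances are a description, and the closest control and morphine edges (753 and 1115 bases) lie nearer to each other than the morphine replicates do. The RNA of Hist3h2ba overlapped between conditions, as given above.

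The 250 bases upstream of 3 starts with peaks are printed with CCAAT and TATAAA of either strand in capitals, since the marked starts differ in these letters. Hist3h2ba held 4 matches of CCAAT and Hist1h1e 1, both with TATAAA, and H1f0 held neither:
Hist3h2ba (chr11:58948661-58948910, + strand): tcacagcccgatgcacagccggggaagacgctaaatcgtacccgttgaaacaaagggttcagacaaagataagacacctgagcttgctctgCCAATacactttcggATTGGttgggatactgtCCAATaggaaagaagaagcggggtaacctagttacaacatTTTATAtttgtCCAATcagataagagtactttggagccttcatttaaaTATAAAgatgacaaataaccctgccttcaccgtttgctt
Hist1h1e (chr13:23622559-23622808, - strand): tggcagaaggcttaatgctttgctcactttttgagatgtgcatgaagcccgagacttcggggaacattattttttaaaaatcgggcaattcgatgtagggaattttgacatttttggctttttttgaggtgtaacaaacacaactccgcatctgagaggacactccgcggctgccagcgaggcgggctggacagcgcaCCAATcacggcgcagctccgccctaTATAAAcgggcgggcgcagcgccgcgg
H1f0 (chr15:79027962-79028211, + strand): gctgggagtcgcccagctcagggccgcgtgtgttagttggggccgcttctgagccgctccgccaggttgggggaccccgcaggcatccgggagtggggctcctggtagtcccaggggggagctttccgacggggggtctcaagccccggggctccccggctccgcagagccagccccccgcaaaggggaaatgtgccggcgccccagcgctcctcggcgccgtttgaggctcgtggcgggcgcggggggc

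**Figure D5:**
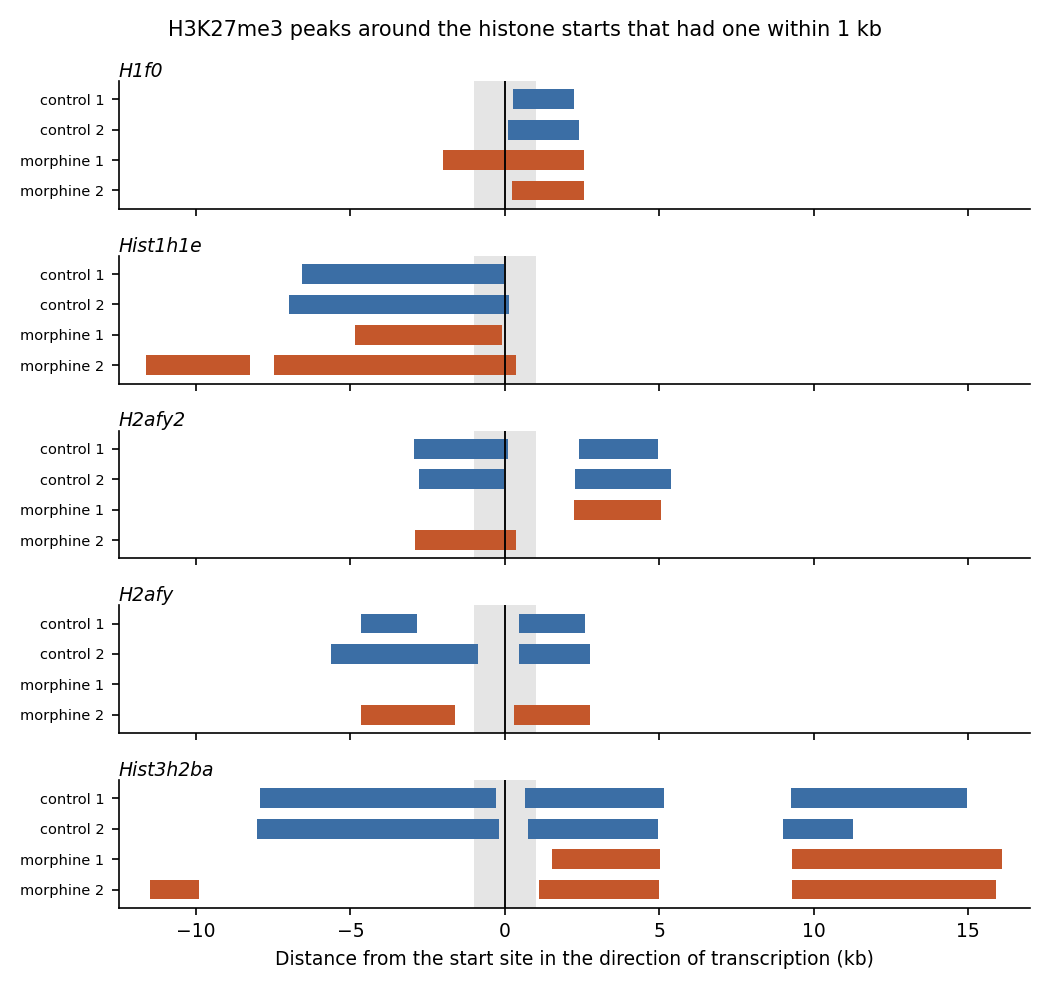
H3K27me3 peaks in each ChIP-Seq library that come within 10 kb of the 5 histone starts with a peak within 1 kb (shaded), as bars over the distance from the start in kb, in the direction of transcription, with control in blue and morphine in orange. At Hist3h2ba the control peaks reach into the shaded window from both sides and the morphine peaks stay outside it, and at H1f0 and Hist1h1e all 4 libraries have a peak in it.

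The chromosome 13 cluster as a whole was not empty of peaks. Its 2219201 bp held 5 and 7 peaks in control and 8 and 8 after morphine, which covered 0.890% and 1.54% of it in control and 1.35% and 1.24% after morphine. Peaks covered 1.22% and 1.63% of the primary chromosomes in control and 1.06% and 1.47% after morphine. Of the 54 cluster loci, 52, 51, 49 and 50 lay over 10 kb from the nearest peak in control replicates 1 and 2 and morphine replicates 1 and 2, against 78.1%, 75.8%, 79.3% and 76.4% of all loci with a strand. The median distance was 69208, 49557.5, 51840.5 and 66961 bp in the cluster and 54828.5, 43102.5, 60369 and 44745.5 bp over all loci, so that the cluster was farther from peaks in 3 libraries and nearer in morphine replicate 1. Neighbouring loci of the cluster share their nearest peak and are not independent. The exceptions near a peak in every library were Hist1h1e and its neighbour Hist1h2be, whose start was 1460 and 1314 bp from a peak in control and 1513 and 1077 bp after morphine. The Hist1h2be locus spans chr13:23583670-23621124, and this start lies at the other end of it from its stem-loop (chr13:23585526-23585551).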

How the data were processed

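RNA-Seq of poly(A) RNA and H3K27me3 ChIP-Seq were each made from 2 control and 2 morphine samples. Per the labels and the study's methods, the authors aligned RNA reads to mm10 with HISAT2 2.1.0, built loci with StringTie 1.3.6 and deposited raw counts per locus from featureCounts 1.6.4. Use of strand and of reads with several alignments, which matters for repeated histone copies, is not stated. ChIP reads were aligned with Bowtie2 2.3.5.1, and the authors deposited MACS peaks for each library (p-value 1e-05), with positions and a score that is a multiple of the negative log10 of the p-value, at least 50 in these lists. Other deposited values (locus names, strands and lengths) were used to choose and place loci.

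Counts were tested with edgeR 4.0.16 in R 4.3.3 (quasi-likelihood test, TMM normalisation, filterByExpr, Benjamini-Hochberg adjustment over all 20350 tested loci, FDR 0.05). Loci without a gene name (3550, holding 2.04% of counts) stayed in the fit. The trend alternative fitted natural splines with 5 degrees of freedom on exon length and GC content in each library. DESeq2 1.42.0 was an alternative. Summed CPM and peak counts were compared by two-sided exact permutation over libraries. The RNA test and the peak overlap were tested on simulated data. Total counts set the precision, and 3 counts was taken as the floor. Genes given with values in each library were all tested variants, tested Hist-named loci, extremes of fold change, loci with a peak in both libraries of only 1 condition, and called genes of the lists of related genes. Other loci were picked out for their 3′ end, repeated sequence or role after values were seen. Histone loci, gene lists and markers were chosen with earlier results of these data known.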

Additional observations from a re-analysis of the deposited data

How the results depend on the processing

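No histone locus was called under any of 15 alternatives (other tests, scalings, filters, an FDR of 0.01, trend removal, the replicate block, and each library left out), with the smallest adjusted p between 0.118 and 0.551. The total called did move, from 309 of all tested loci to 790 with the exact test, 840 with the likelihood ratio test, 652 with DESeq2, 515 with total counts only, 1657 without a count filter and 88 with the length and GC trends removed, and between 13 (without morphine replicate 1) and 1619 (without control replicate 2) with a library left out. With a library left out, 1 group has only 1 sample and the other group alone gives the spread. Equal replicate numbers did not pair the samples (correlation across loci of the replicate differences 0.026). With the replicate number as a block, 0 histone loci and 1128 loci in all were called, or 305 in all with the trends removed as well.

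Of 293 fold changes of named loci under an alternative, 264 kept direction and call, 5 (all of Supt16) lost the call, and 24 at 11 loci turned. With trends removed, and in the same fit with the replicate block, the log2 fold change was 0.033 and 0.032 for H3f3b, -0.11 and -0.11 for H2afx, -0.040 and -0.041 for H2afy2, -0.042 and -0.042 for H1fx, -0.084 and -0.083 for H1f0, and -0.15 and -0.15 for Hist1h3g. With a library left out, it ran from -0.035 to 0.11 for H3f3a, -0.088 to 0.11 for H2afy2, -0.61 to 0.086 for Hist1h4i, -0.13 to 0.20 for Hist1h3g, -0.065 to 0.20 for Hist1h2bc, -0.0098 to 0.038 for H1f0, -0.14 to 0.098 for H2afz and -0.30 to 1.66 for Hist3h2ba. With a library left out, loci that kept their sign but moved by over 1.5 times were Hist2h2be (-0.95 to -0.33), Hist1h2ba (-0.85 to -0.18), Hist1h2aa (0.13 to 0.62), H2afj (0.018 to 0.25), H2afx (0.022 to 0.14), H1fx (0.056 to 0.20) and H2afv (0.018 to 0.084). With trends removed they were Hist1h1c (-0.33), Hist1h4i (-0.46), Hist1h2aa (0.20), Hist1h2bc (0.020), H3f3a (0.10), H2afv (0.077), H2afz (-0.015) and H2afj (0.030). The cause was not tested.

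The log2 ratio of summed Hist-named CPM stayed below 0 throughout, from -0.21 to -0.09 with a library left out. Added after the data were seen, stem-loop loci alone gave -0.24, and the sum without Hist1h2bc and Hist1h1c gave -0.32. That of variant CPM, -0.02, was 0.0036 with total counts only and ran from -0.057 to 0.023 with a library left out. The mean number of histone starts with a peak, 2 fewer after morphine, differed by 0 within 3 kb, by 0.5 for peaks over the start itself and by 0.5 for peak midpoints within 1 kb, by -1.5 at a score of at least 100, by -3 with 8681 peaks in each library, and by -3 to -1 with a library left out. Of the 66 Hist-named loci, 58 had too few counts for testing.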
